A study of Mus musculus with 12 samples.

Results

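Whether the response to GW3965, an agonist of the liver X receptors (LXRs), depended on inhibition of GSK3 by CT99021, and the reverse, was examined in all 12 of the 12 RNA-seq libraries of the study, over 15608 genes. The libraries form a complete layout of GW3965 present or absent and CT99021 present or absent, taken from the sample titles. The interaction is the log2 effect of GW3965 with CT99021 (GW3965+CT99021 against CT99021) minus the log2 effect of GW3965 without it (GW3965 against Control). A value above 0 means that the effect of GW3965 was more positive with CT99021, and equally that the effect of CT99021 was more positive with GW3965. A value of 0 means that the fold changes of the compounds multiplied.

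RNA was measured in neurospheres, free-floating cultures that enrich dividing neural progenitors, grown from ventral midbrain tissue of E11.5 embryos of the CD-1 mouse strain. The spheres grew for 3 days and then spent 5 h in N2 medium with GW3965 plus CT99021, with CT99021, with GW3965, or, as Control, with the DMSO vehicle that the treatment protocol names. Each of the 4 groups had 3 libraries, numbered 1 to 3, and the libraries came from 0.5 µg of total RNA with Illumina TruSeq kits. The labels name no separate culture, litter or day behind a number. A p-value from a fit with that number as a block measures the spread left after differences between numbers are removed. That spread may be technical. All groups share the strain, the stage, the medium and the expansion. The labels used here give no doses.

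LXRs are nuclear receptors for oxidised cholesterol that bind DNA as heterodimers with RXR, and they switch on genes of cholesterol export and of fatty acid synthesis. GSK3 is the kinase that marks beta-catenin for destruction, so its inhibition lets beta-catenin reach TCF/LEF factors and switch on Wnt target genes. Both pathways are known to act on the progenitors of midbrain dopaminergic neurons.

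Libraries held 9646424 to 21314093 counts on gene rows. The 3 leading principal components took 49.7%, 14.8% and 14.2% of the variance, and which of them followed treatment is not given here. Libraries of the same replicate number were alike. Their deviations from group means correlated at 0.496 to 0.828, against -0.677 to 0.241 for libraries of different numbers. The replicate number was therefore a block in the fit from which values are given unless a sentence says otherwise. These ranges are not independent. The deviations of a group sum to 0, so same-number correlations above 0 force some of the others below 0. CT99021 replicate 1 gave 7.95% of its counts to Lars2, against 0.0336% to 0.142% elsewhere. The 12 libraries carry 9 index sequences, per the file header: each of the 3 GW3965+CT99021 libraries shares an index with a Control library, while libraries with 1 compound share none. Libraries with the same index cannot be sequenced in 1 pool and still be told apart. Each shared index joins libraries of different replicate numbers. The labels used here do not describe the pools, and the part of a pool difference in the interaction was not tested.

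No gene passed the test of the interaction. By edgeR's quasi-likelihood test, 0 of 15608 genes (0%) had an adjusted p under 0.05, and the smallest adjusted p was 0.999. At an unadjusted p under 0.05 there were 522 genes (3.34%), of which 212 (1.36%) had positive and 310 (1.99%) negative values, against 780 that an even spread of p-values would give. Limma-voom with the same block called 0 genes (551 at an unadjusted p under 0.05), and edgeR without the block called 0 (74 unadjusted). DESeq2 called 2, Cyp2g1 and Gm10440, each with 4 counts in all 12 libraries together.

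**Figure D1:**
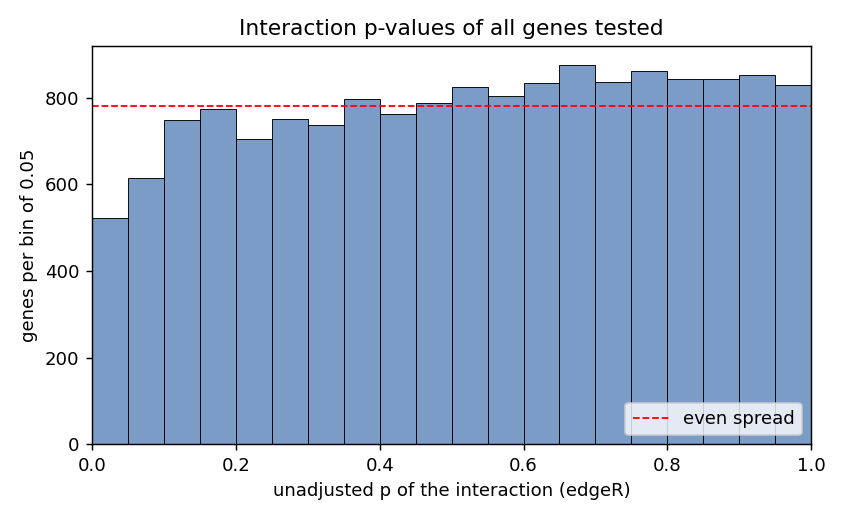
Number of genes per bin of the unadjusted interaction p (edgeR, 15608 genes, bins of 0.05), with the even spread as a dashed line. The lowest bin holds 522 genes, below the even spread of 780.

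The data limit how large an interaction can be for most genes. The median standard error of the log2 interaction was 0.18 (quartiles 0.13 and 0.32), and the 95% interval reached a median of 0.4 to either side of the value. The interval lay wholly within a 2-fold change either way for 11927 genes (76.4%) and within 1.5-fold for 8569 (54.9%). Among the 5461 genes that the main effect of CT99021, averaged over both GW3965 states, moved past the test (35% of genes), 4847 (88.8%) had an interval within 2-fold. The median interaction over all genes was 0.02.

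Each compound changed genes in the presence and in the absence of the other. GW3965 raised 3 genes past the test with CT99021, Abca1, Abcg1 and Srebf1 (0.0192% of genes), and lowered none. Without CT99021 it raised 3, again Abca1, Abcg1 and Srebf1 (0.0192%), and lowered none. Averaged over both CT99021 states it raised 6 (0.0384%): these 3 and the stearoyl-CoA desaturase genes Scd1, Scd2 and Scd3. CT99021 moved 3216 genes in the presence of GW3965 (20.6%; 1841 higher, 1375 lower) and 2470 without it (15.8%; 1285 higher, 1185 lower). That these counts differ is no test of a difference, and the interaction is that test.

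**Figure D2:**
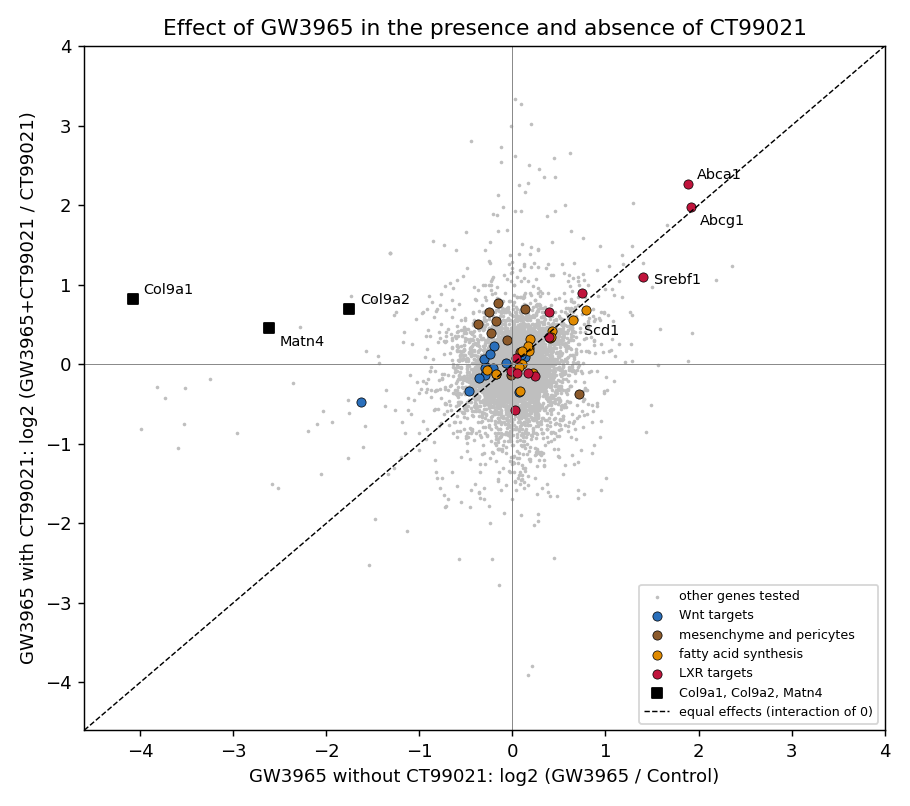
Log2 effect of GW3965 with CT99021 (GW3965+CT99021 over CT99021, vertical axis) against its log2 effect without CT99021 (GW3965 over Control, horizontal axis), 1 point per gene, with gene lists in colour and 5 genes outside the axes. Abca1, Abcg1 and Srebf1 lie near the dashed line of equal effects, and Col9a1, Col9a2 and Matn4 lie far to its left.

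Abca1, Srebf1 and Fasn share a sequence near an annotated start site. The windows are shown because Abca1 and Srebf1 set the scale of the GW3965 response. The windows below run from 250 bases before to 50 bases after an annotated start, from RefSeq on GRCm38.p6, on the minus strand of the chromosome and 5′ to 3′. Capitals mark the letters that read GGTTACNNNNGGTCA on the opposite strand, a pattern chosen after these sequences were seen. Direct repeats of this kind are what LXR-RXR heterodimers are known to bind. Srebf1 has 3 annotated start windows, of which 1 holds the pattern. Of 10 genes looked up, 6 had windows.
Abca1 (chr4:53159846-53160145, minus strand): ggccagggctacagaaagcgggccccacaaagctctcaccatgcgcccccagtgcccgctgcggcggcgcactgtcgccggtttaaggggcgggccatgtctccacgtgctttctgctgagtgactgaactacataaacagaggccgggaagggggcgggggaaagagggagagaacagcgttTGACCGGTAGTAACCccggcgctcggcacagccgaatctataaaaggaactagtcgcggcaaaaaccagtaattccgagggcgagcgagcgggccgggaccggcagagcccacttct
Srebf1 (chr11:60210422-60210721, minus strand): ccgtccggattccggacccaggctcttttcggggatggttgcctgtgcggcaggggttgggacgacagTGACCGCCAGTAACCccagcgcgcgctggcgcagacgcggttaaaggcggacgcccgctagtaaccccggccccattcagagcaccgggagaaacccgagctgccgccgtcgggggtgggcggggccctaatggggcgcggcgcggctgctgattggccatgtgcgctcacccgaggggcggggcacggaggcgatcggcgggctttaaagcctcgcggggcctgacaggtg
Fasn (chr11:120824498-120824797, minus strand): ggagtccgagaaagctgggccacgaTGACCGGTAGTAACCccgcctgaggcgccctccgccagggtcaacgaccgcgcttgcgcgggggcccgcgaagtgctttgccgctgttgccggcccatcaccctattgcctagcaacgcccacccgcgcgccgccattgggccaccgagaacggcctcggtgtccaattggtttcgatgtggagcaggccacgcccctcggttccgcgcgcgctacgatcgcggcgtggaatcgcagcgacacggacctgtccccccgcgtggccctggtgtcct

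The pattern begins at base -67 from the start in Abca1, at -182 in Srebf1 and at -225 in Fasn, which encodes fatty acid synthase. Searched on both strands, GGTTACNNNNGGTCA occurs in 12 of 32851 windows (0.0365%), of 9 among 27025 genes. The other 6 genes are Acsl3, Prrg4, Tmem150c, Haao, Gm52617 and LOC115486416, of which the first 3 were measured well enough to test. The single nuclear receptor core AGGTCA is in 5340 windows (16.3%) and the TCF/LEF core CTTTGA in 5257 (16%), on either strand, and neither is in the 3 windows printed. Of the 6 tested genes with the pattern, Abca1 and Srebf1 rose with GW3965. For Acsl3, an acyl-CoA ligase gene, the log2 effect of GW3965 was 0.42 ± 0.1 (SE) with CT99021 and 0.43 ± 0.1 without, an interaction of -0.02 (95% interval -0.33 to 0.3). Averaged over both states, the log2 effect of GW3965 was 0.43 ± 0.07 for Acsl3, 0.54 ± 0.14 for Prrg4, 0.37 ± 0.07 for Fasn and 0.07 ± 0.09 for Tmem150c, and none of these passed (edgeR adjusted p = 0.213, 0.681, 0.681 and 0.853). Interactions were -0.25 (-0.87 to 0.37) for Prrg4 and -0.05 (-0.46 to 0.36) for Tmem150c. A match of letters is a description and no evidence of binding.

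Abca1, the cholesterol and phospholipid exporter of the plasma membrane (mm9 chromosome 4, listed position 53043660, minus strand), had 126, 110 and 363 CPM, the count scaled to the normalized library total, in GW3965+CT99021 replicates 1, 2 and 3. It had 19.4, 20.5 and 106 CPM with CT99021, 106, 123 and 475 CPM with GW3965, and 39.1, 27.3 and 113 CPM in Control. Within each replicate number, both libraries with GW3965 were above both without it, and libraries numbered 3 were the highest of every group. The log2 effect of GW3965 was 2.26 ± 0.17 (SE) with CT99021 and 1.89 ± 0.17 without it, with edgeR adjusted p of 0.00131 and 0.00387. The interaction was 0.37 ± 0.24 (95% interval -0.16 to 0.9), and within numbers 1, 2 and 3 it was 1.26, 0.24 and -0.3. The replicate numbers thus differed in sign. Without the 4 libraries numbered 3 the interaction was 0.75, at an unadjusted p of 0.0122 and with 0 genes past the test. Without the replicate block it was 0.06.

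Abcg1, a transporter that passes sterols on to lipoproteins (mm9 chromosome 17, listed position 31194538, plus strand), had 32.4, 22.9 and 23.1 CPM in GW3965+CT99021 replicates 1, 2 and 3. The level was 6.89, 8.43 and 4.36 CPM with CT99021, 56.5, 42.9 and 57.3 CPM with GW3965, and 19.7, 13.7 and 9.04 CPM in Control. GW3965 raised it in both states and CT99021 lowered it in both. The log2 effect of GW3965 was 1.98 ± 0.24 with CT99021 and 1.92 ± 0.22 without (edgeR adjusted p = 0.0496 and 0.0322). The log2 effect of CT99021 was -1.02 ± 0.22 with GW3965 and -1.08 ± 0.25 without (edgeR adjusted p = 0.0106 and 0.018). The interaction was 0.06 ± 0.33 (95% interval -0.67 to 0.8), so a 1.5-fold difference in either direction was within the interval. Its sign changed under 5 of 21 alternative settings.

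Srebf1, which encodes SREBP-1, the transcription factor of fatty acid synthesis (mm9 chromosome 11, listed position 60012590, minus strand), had 231, 285 and 256 CPM in GW3965+CT99021 replicates 1, 2 and 3. It had 108, 150 and 106 CPM with CT99021, 201, 267 and 246 CPM with GW3965, and 86.1, 106 and 78.8 CPM in Control. Libraries with GW3965 did not overlap those without it. GW3965 raised it by 1.1 ± 0.09 log2 units with CT99021 and by 1.4 ± 0.09 without (edgeR adjusted p = 0.00131 and 0.000264). CT99021 alone raised it by 0.42 ± 0.09 (edgeR adjusted p = 0.013), while on top of GW3965 the difference was 0.12 ± 0.09 (adjusted p = 0.369). The interaction was -0.3 ± 0.12 (95% interval -0.58 to -0.03), negative within each replicate number at -0.13, -0.4 and -0.37, with an unadjusted p of 0.035 and an edgeR adjusted p of 0.999. It did not pass the test, and its sign was negative under all 21 alternatives, between -0.37 and -0.23.

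**Figure D3:**
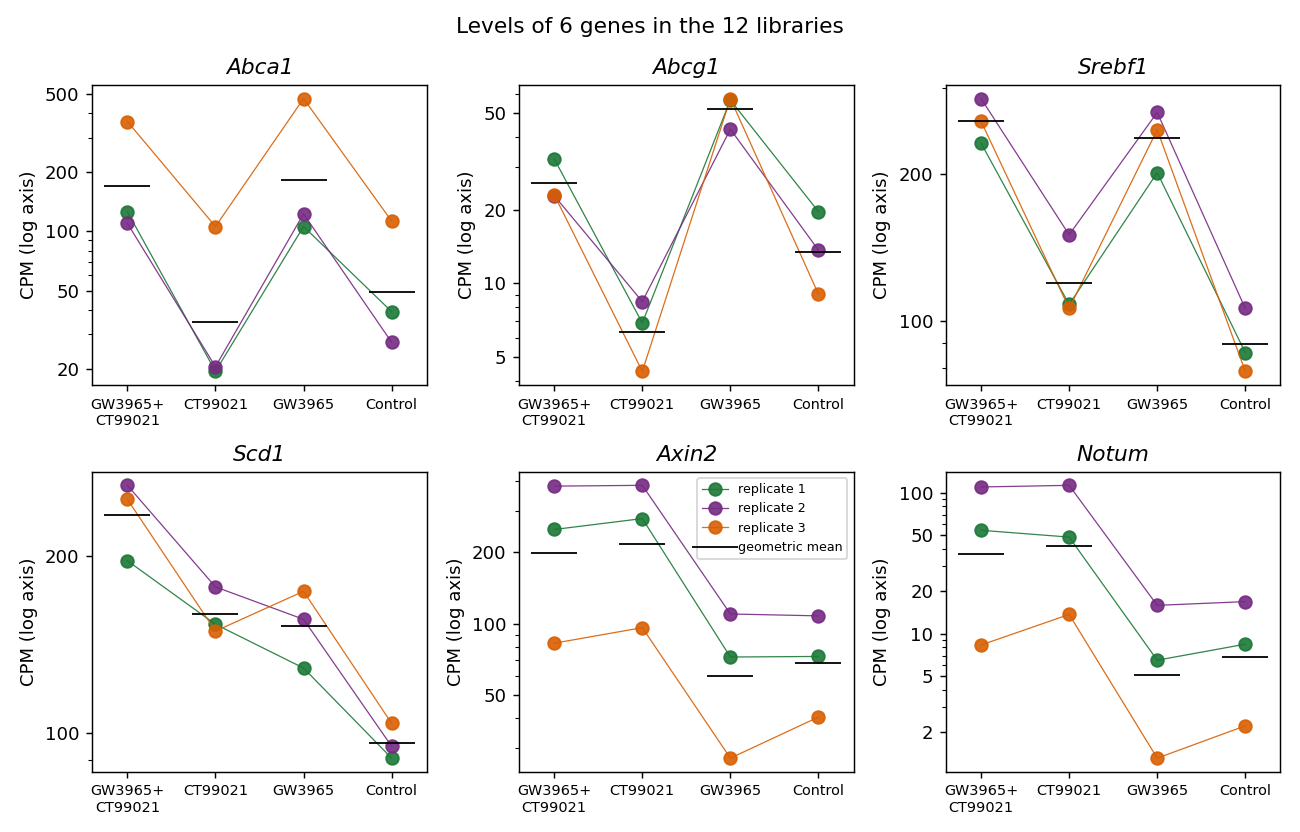
CPM (log axis) of 6 genes in the 12 libraries, by group, with lines joining libraries of the same replicate number and bars for geometric means. Abca1, Abcg1 and Srebf1 are high in both groups with GW3965, Axin2 and Notum in both groups with CT99021, and Scd1 is highest with both compounds.

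Of the 12 LXR target genes listed, all tested, 3 rose with GW3965 in each state, against 0.0192% of all genes. In the interaction 0 passed the test. Srebf1 and Abcg4 were the 2 at an unadjusted p under 0.05, against 3.34% of all genes. Interactions were above 0 for 5 and below for 7, against 54.3% above 0 over all genes, with a median of -0.06. The interval was within 2-fold for 10 of 12 and within 1.5-fold for 5 of 12, against 76.4% and 54.9% of all genes. The 3 replicate numbers had 1 sign in 4 of 12, against 29.9% of all genes. Abcg4, a sterol transporter of neurons and glia, had an interaction of -0.39 (95% interval -0.73 to -0.05). Lpl, which encodes lipoprotein lipase, had the lowest value at -0.6 (-1.28 to 0.07). Lpcat3, the phospholipid-remodelling acyltransferase, had a narrow interval around -0.05 (-0.29 to 0.18), and Apoe, the lipid carrier of glia, one of -0.41 to 0.27 around -0.07. For Mylip, a ubiquitin ligase gene, the value was 0.27 (-0.38 to 0.91). The receptor genes themselves had interactions of -0.18 for Nr1h2 (LXR beta; -0.47 to 0.11), 0.14 for Nr1h3 (LXR alpha; -1.1 to 1.39) and 0.11 for Rxra (-0.13 to 0.34). Nr1h3 was at 5.53 CPM or less in each library, and its interval was the widest of these 3.

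Fatty acid synthesis holds genes that both compounds raised, whose level with both can be set against the product and the sum of the single effects. Scd1, the desaturase that makes oleate (mm9 chromosome 19, listed position 44468939, minus strand), had 196, 263 and 249 CPM in GW3965+CT99021 replicates 1, 2 and 3. Its levels were 153, 177 and 149 CPM with CT99021, 129, 156 and 174 CPM with GW3965, and 90.8, 95.1 and 104 CPM in Control. All 3 libraries with both compounds were above every other library. CT99021 raised Scd1 with GW3965 (0.63 ± 0.1, edgeR adjusted p = 0.00242) and without it (0.73 ± 0.1, adjusted p = 0.00194). GW3965 raised it averaged over both states (0.6 ± 0.07, edgeR adjusted p = 0.0121), although neither single comparison passed (0.55 ± 0.1 with CT99021 and 0.65 ± 0.1 without, adjusted p = 0.351 and 0.135). The interaction was -0.1 ± 0.14 (95% interval -0.4 to 0.2).

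With both compounds Scd1 averaged 236 ± 35.5 CPM (SD, n = 3), against 252 ± 36.9 CPM for the product of the single fold changes on the Control level within each replicate number and 216 ± 23.7 CPM for the sum of the single differences. It was above the sum in 3 of 3 numbers and above the product in 0 of 3. Srebf1 averaged 258 ± 27.2 CPM with both compounds, against 320 ± 63.1 CPM for the product and 269 ± 43.9 CPM for the sum, and was below the product in each number. Abcg1, on which the compounds acted in opposite directions, averaged 26.1 ± 5.4 CPM, against 24.6 ± 4.21 CPM for the product and 44.6 ± 7.58 CPM for the sum. It was below the sum in 3 of 3 numbers, so its level with both compounds was near the multiplied effects and under the added ones. Fasn averaged 951 ± 228 CPM, against 1000 ± 295 CPM for the product and 916 ± 236 CPM for the sum. No test was made of product against sum.

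Of the 16 fatty acid synthesis genes tested, 6 rose and 1 fell with CT99021 in the presence of GW3965 (11.8% and 8.81% of all genes), and 6 rose and 1 fell without it (8.23% and 7.59%), and 0 rose with GW3965 in a single state. None had an unadjusted interaction p under 0.05. Their median interaction was -0.05, at -0.04, -0.01 and -0.02 within numbers 1, 2 and 3, and 15 of 16 intervals were within 2-fold and 11 within 1.5-fold, against 76.4% and 54.9% of all genes. Scd2, the main desaturase gene of brain, had -0.11 (95% interval -0.47 to 0.25), Fasn -0.07 (-0.4 to 0.26) and Acaca, acetyl-CoA carboxylase, 0.13 (-0.13 to 0.38). The highest was Elovl6, an elongase gene, at 0.19 (-0.22 to 0.6), and the lowest Acacb at -0.42 (-1.4 to 0.56). The 23 tested genes of cholesterol synthesis and uptake had a median of -0.07 (-0.22 to 0.02 without each library in turn), with 5 above 0 and 18 below, against 54.3% above over all genes, 22 intervals within 2-fold and 0 at an unadjusted p under 0.05. Insig1, a sterol-sensing brake on SREBP processing, had -0.07 (-0.4 to 0.26). Acat2 had the highest value at 0.09 (-0.38 to 0.56). The medians of the cholesterol genes within numbers 1, 2 and 3 were -0.28, -0.05 and 0.05, of both signs.

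**Figure D4:**
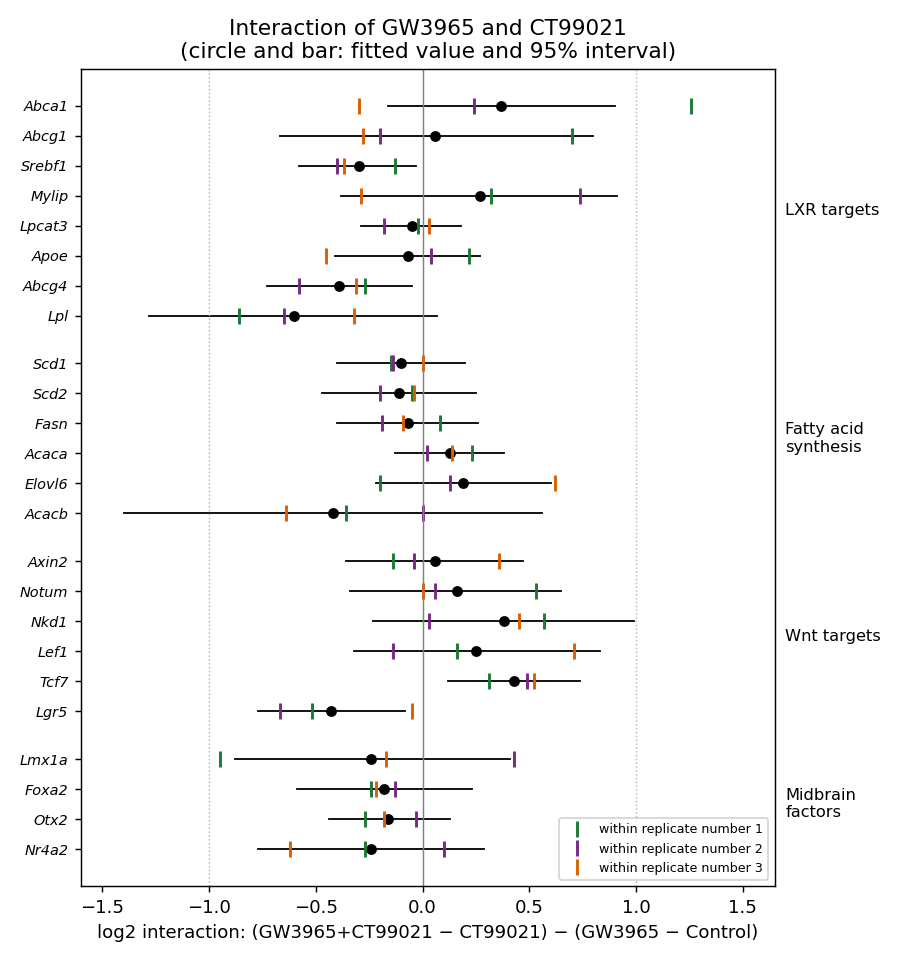
Log2 interaction (horizontal axis) of 24 genes: circles and bars are the fitted values with 95% intervals, and coloured ticks are the values within each replicate number. Intervals of Srebf1, Abcg4, Tcf7 and Lgr5 do not include 0, and that of Srebf1 runs from -0.58 to -0.03.

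Wnt target genes answered to CT99021 in both states of GW3965. Axin2, the scaffold of the destruction complex and its feedback inhibitor (mm9 chromosome 11, listed position 108781562, plus strand), had 250, 381 and 82.8 CPM in GW3965+CT99021 replicates 1, 2 and 3. Levels were 278, 384 and 96.3 CPM with CT99021, 72.4, 110 and 27.1 CPM with GW3965, and 72.8, 108 and 40.4 CPM in Control. Within each number the libraries with CT99021 were above those without. The log2 effect of CT99021 was 1.73 ± 0.13 with GW3965 and 1.68 ± 0.13 without (edgeR adjusted p = 0.000137 and 0.000142), and the interaction was 0.06 ± 0.19 (95% interval -0.36 to 0.47). Notum, the secreted enzyme that inactivates Wnt proteins, rose by 2.84 ± 0.16 with GW3965 and by 2.68 ± 0.16 without (edgeR adjusted p = 2.76e-05 and 3.77e-05), an interaction of 0.16 (-0.34 to 0.65). Nkd1, an inhibitor of Dishevelled, had an interaction of 0.38 (-0.23 to 0.99), and Lef1, a DNA-binding partner of beta-catenin, one of 0.25 (-0.32 to 0.83).

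Tcf7, which encodes the related factor TCF1, had 47.5, 51.6 and 23.8 CPM in GW3965+CT99021 replicates 1, 2 and 3, and 39.8, 40.9 and 22.3 CPM with CT99021. It had 16.3, 15.5 and 7.94 CPM with GW3965 and 17, 17.3 and 10.7 CPM in Control. In every number the combination was above CT99021 alone and GW3965 was below Control. CT99021 raised it by 1.61 ± 0.1 with GW3965 and by 1.19 ± 0.1 without (edgeR adjusted p = 4.23e-05 and 0.000173). The interaction of 0.43 ± 0.14 (95% interval 0.12 to 0.74) had an unadjusted p of 0.0114 and an edgeR adjusted p of 0.999, with 0.31, 0.49 and 0.52 within the numbers. Lgr5, the R-spondin receptor gene, had an interaction of opposite sign at -0.43 (-0.77 to -0.08, unadjusted p = 0.0206, edgeR adjusted p = 0.999). The CPM of Lgr5 was 25.8, 19.1 and 13.1 with both compounds, 34, 28 and 13.9 with CT99021, 30.5, 28.6 and 13.8 with GW3965, and 28.1, 26.3 and 14.2 in Control. In number 3 the 4 libraries hardly differed.

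Of 16 Wnt targets, 12 rose and 1, Myc, fell with CT99021 in the presence of GW3965 (11.8% and 8.81% of all genes), and 10 rose and 1 fell without it (8.23% and 7.59%). Interactions were above 0 for 13 of 16, with a median of 0.16, against 54.3% and 0.02 over all genes. Intervals were within 2-fold for 12 of 16 and within 1.5-fold for 3 of 16, against 76.4% and 54.9% of all genes. Tcf7 and Lgr5 were the 2 at an unadjusted p under 0.05, against 3.34% of all genes. The medians within numbers 1, 2 and 3 were -0.03, 0.01 and 0.37, and the median was 0.01 without the 4 libraries numbered 3 and -0.02 without Control replicate 3. For Dkk4, a Wnt antagonist, 5 of the 6 libraries without CT99021 held 0 counts, and its interaction has no usable interval. Genes of GSK3 and the destruction complex had a median of 0.09 and 8 of 9 intervals within 2-fold. Those of Gsk3b (-0.15 to 0.36) and Ctnnb1, beta-catenin (-0.13 to 0.31), were within 1.5-fold.

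Transcription factors of the midbrain floor plate and dopaminergic lineage had small values. Of 15 floor plate and dopaminergic progenitor genes, 4 had interactions above 0 and 11 below, against 54.3% above over all genes, and none had an unadjusted p under 0.05. The median was -0.16, and it stayed below 0 without each library in turn. It was -0.21 without GW3965+CT99021 replicate 1 and -0.21 without GW3965 replicate 1, the lowest values. The highest were -0.04 without GW3965+CT99021 replicate 2 and -0.04 without GW3965 replicate 3. The median was -0.19 without the replicate block. It was 0.01 when all libraries numbered 3 and GW3965+CT99021 replicate 2 were left out together. The spheres expressed midbrain genes in every group: Otx2, the forebrain and midbrain determinant, had 51.6 to 114 CPM with both compounds, 59.4 to 115 with CT99021, 68.1 to 137 with GW3965 and 69.3 to 136 in Control. Its interaction was -0.16 (95% interval -0.44 to 0.13). That of En1, the midbrain-hindbrain homeobox gene, was 0 (-0.26 to 0.25), that of Foxa2, the floor plate forkhead factor, -0.18 (-0.59 to 0.23), and that of Lmx1a, a determinant of dopaminergic progenitors, -0.24 (-0.88 to 0.41). Nr4a2, the Nurr1 gene of dopaminergic neurons, had -0.24 (-0.77 to 0.29), while Th, tyrosine hydroxylase, was under 2 CPM in each library and its interval, -0.72 to 1.55, was wide.

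CT99021 changed proneural factors with and without GW3965. Neurog2, which drives neurogenesis in this domain, rose by 1.63 ± 0.28 with GW3965 and by 2.04 ± 0.27 without (edgeR adjusted p = 0.0041 and 0.00224), and Olig2, a ventral progenitor factor, fell by 2.12 ± 0.29 and by 2.06 ± 0.28 log2 units (edgeR adjusted p = 0.00161 and 0.0023). The interactions were -0.41 (95% interval -1.27 to 0.46) for Neurog2 and -0.06 (-0.95 to 0.84) for Olig2. Both intervals are wide. Neural progenitor genes had a median interaction of -0.04, and Sox2, the pan-neural progenitor factor, 0 (-0.23 to 0.23). Genes of mitosis had the largest share of intervals within 1.5-fold among the 17 lists, 10 of 12, with a median of 0.1. All 12 were within 2-fold, and the shares over all genes were 54.9% and 76.4%. Mki67, the proliferation antigen Ki-67, had 0.13 (-0.26 to 0.52).

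Genes of the ATF4 and endoplasmic reticulum stress response differed in 1 replicate number. Ddit3, which encodes the stress factor CHOP, had 20.6, 22.6 and 127 CPM in GW3965+CT99021 replicates 1, 2 and 3, 22.2, 23.4 and 25.4 CPM with CT99021, 16.1, 18.3 and 133 CPM with GW3965, and 17.4, 17.2 and 25 CPM in Control. Both libraries numbered 3 with GW3965 were high, and the other 10 were not. The summed CPM of the 14 genes was 2160, 2090 and 3870 with both compounds, 2080, 2110 and 1690 with CT99021, 1590, 1580 and 3400 with GW3965, and 1600, 1630 and 1470 in Control. The interaction of Ddit3 was -0.17 (95% interval -1.78 to 1.43), and -0.1 within number 3, where the log2 difference made by GW3965 was 2.31 with CT99021 and 2.41 without. Only 5 of 14 intervals were within 2-fold and 0 within 1.5-fold, against 76.4% and 54.9% of all genes. The list therefore bounds the interaction poorly. Its median was -0.06 and changed sign with single libraries, between -0.51 without GW3965+CT99021 replicate 3 and 0.42 without GW3965 replicate 3.

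Markers of other cell types were present and moved between libraries. The summed CPM of 10 mesenchyme and pericyte genes was 2370, 986 and 3190 with both compounds, 1670, 393 and 3930 with CT99021, 1320, 297 and 2580 with GW3965, and 1540, 285 and 2960 in Control. The libraries numbered 2 were the lowest of each group. In numbers 1 and 2 the combination was the highest, and in number 3 CT99021 alone was. Of the 10 genes, 8 had interactions above 0, with a median of 0.58, against 0.02 over all genes. Its medians within numbers 1, 2 and 3 were 0.73, 1.16 and -0.01, and the list median was 0.12 without GW3965+CT99021 replicate 2 and 1.01 without replicate 3 of that group. It was 0.08 without the replicate block. None of the 10 was at 0 in all libraries. In bulk RNA, fewer cells of a type and less RNA per cell cannot be told apart.

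Within that list Twist1, a mesenchymal transcription factor, had 23.2, 12.8 and 42.5 CPM in GW3965+CT99021 replicates 1, 2 and 3, 17.7, 5.53 and 40.6 CPM with CT99021, 8.05, 3.7 and 14.9 CPM with GW3965, and 10.2, 3.91 and 22.8 CPM in Control. In each number the combination was the highest and GW3965 the lowest of the 4. CT99021 raised it by 1.62 ± 0.19 with GW3965 and by 0.74 ± 0.19 without (edgeR adjusted p = 0.000912 and 0.0254). The interaction was 0.88 ± 0.26 (95% interval 0.29 to 1.46, unadjusted p = 0.00753, edgeR adjusted p = 0.999), and 0.73, 1.27 and 0.67 within the numbers. Foxc1, a forkhead factor of mesenchyme, had 0.91 (0.08 to 1.74). Col3a1, a fibrillar collagen of mesenchyme, had the highest value of the list at 0.94 (-0.02 to 1.9). The lowest was that of Rgs5 at -1.1 (-2.45 to 0.25). Only 1 of 10 intervals was within 2-fold, against 76.4% of all genes, so the list bounds the interaction poorly. The median of 4 tested endothelial genes was 0.42, of 4 microglial genes -0.01 and of 5 erythroid genes 0.04. The part of a differing mesenchyme share in the values of Twist1 and Foxc1 was not tested.

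**Figure D5:**
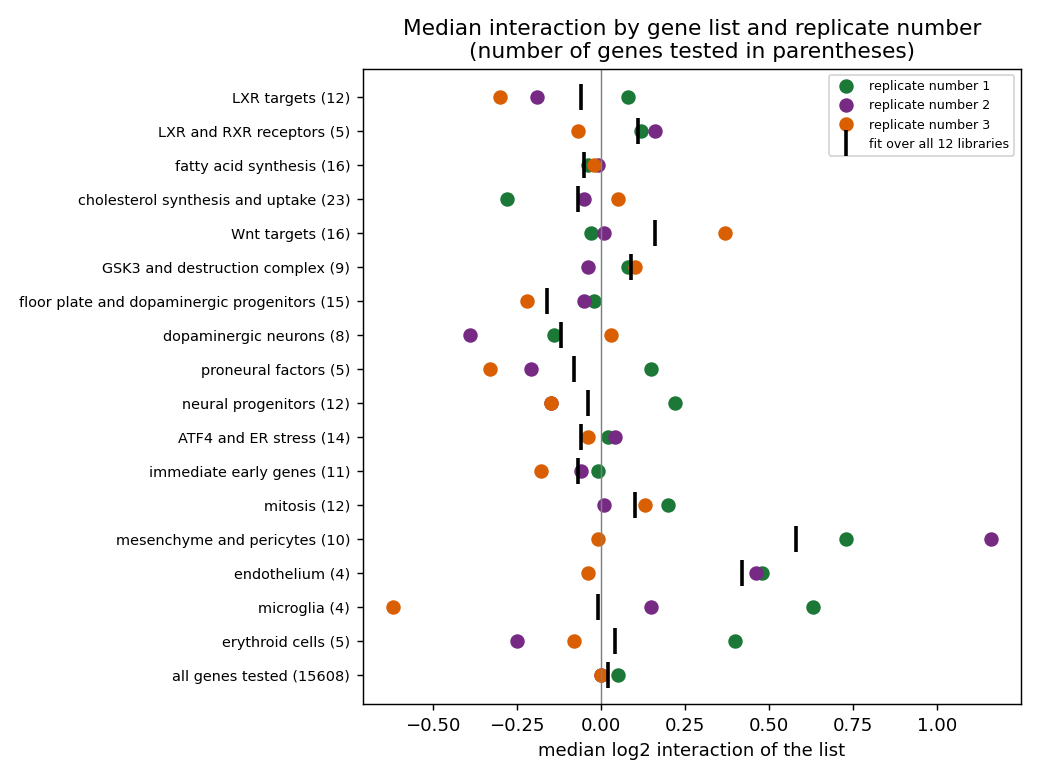
Median log2 interaction (horizontal axis) of 17 gene lists and of all genes, within each replicate number (circles) and in the fit over all 12 libraries (bars). Most lists lie near 0, and mesenchyme and pericyte genes reach 0.58 in the fit, with 1.16 in number 2 and -0.01 in number 3.

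Genes with a mean of at least 1 CPM over 12 libraries and 1 sign in the 3 numbers were ranked by unadjusted p. Those of lowest p were chosen for their interaction and are described without a test. Among the 10 positive ones were 3 cartilage matrix genes: Col9a1 and Col9a2, chains of collagen IX, and Matn4, a matrilin. Col9a1 had 1.38, 3.18 and 183 CPM in GW3965+CT99021 replicates 1, 2 and 3, 1.93, 0.252 and 107 CPM with CT99021, 0.782, 0.403 and 5.33 CPM with GW3965, and 7.36, 0.148 and 124 CPM in Control. Among libraries numbered 3, that with GW3965 alone stood far below the other 3. The interactions were 4.89 for Col9a1, 2.44 for Col9a2 and 3.07 for Matn4. Without GW3965 replicate 3 they were 2.94, 1.78 and 2.19. Col2a1, the main collagen of cartilage, named after its values were seen, had 919 CPM with both compounds, 585 with CT99021, 69.2 with GW3965 and 665 in Control in number 3. In numbers 1 and 2 it had 35.8 and 59.9 CPM with both compounds, 39.8 and 64.8 CPM with CT99021, 47.4 and 68.9 CPM with GW3965, and 95.2 and 71.9 CPM in Control. GW3965 replicate 3 was again far below the other libraries numbered 3. The interaction of Col2a1 was 1.32 (95% interval -0.57 to 3.22), and that of Sox9, the transcription factor of cartilage, 0.17 (-0.88 to 1.23). Both intervals include 0. That of Acan, a cartilage matrix gene also named after its values were seen, does not: its interaction was 3.07 (0.51 to 5.63). In number 3 Acan had 11 CPM with both compounds, 16.7 with CT99021, 0.704 with GW3965 and 18.5 in Control. In numbers 1 and 2 it had at most 3.33 CPM.

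Stard8, Tmem26 and Mme followed the same layout among the positive genes, with 7.24, 3.82 and 33.1 CPM in GW3965 replicate 3 against 28.9, 16.3 and 110 CPM in Control replicate 3. Their interactions were 1.89, 1.9 and 1.43, and without GW3965 replicate 3 they were 1.25, 1.19 and 0.94. Vps13b, a vesicle transport gene, did not: it had 27.3, 37.3 and 60.4 CPM with both compounds, 20.8, 29.7 and 41.9 CPM with CT99021, 24, 36.8 and 51.5 CPM with GW3965, and 29.5, 35.5 and 57.8 CPM in Control. In each number CT99021 alone was the lowest of the 4. Its interaction was 0.56. Sema5a, a semaphorin of axon guidance, had 0.76, Slc12a2, the sodium-potassium-chloride cotransporter NKCC1, 0.41, and Arhgap31 0.48.

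Among the 10 negative genes were Ttc5 and Car5a. Ttc5 had 41.3, 47.6 and 41.9 CPM in GW3965+CT99021 replicates 1, 2 and 3, 53.2, 57.5 and 48.9 CPM with CT99021, 57.2, 67.3 and 60.9 CPM with GW3965, and 53.3, 64 and 51.1 CPM in Control. In each number the combination was the lowest of the 4. The interaction of Ttc5 was -0.43. Car5a, a mitochondrial carbonic anhydrase gene, had -1.13. Car5a had 7.96, 9.09 and 9.51 CPM with both compounds, 18.1, 16.1 and 10.5 CPM with CT99021, 13.8, 18.1 and 11.9 CPM with GW3965, and 10.2, 13.7 and 9.2 CPM in Control. In number 3 the combination and Control hardly differed.

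Calls of the interaction in larger number came with 1 setting. It was the fit of 7 libraries, outside a set of 5 that earlier work on these data found to stand apart. The 5 are those numbered 3 and GW3965+CT99021 replicate 2. The 7-library fit holds 1 combination library, replicate 1, so the number of calls is not given. The log2 interaction of mt-Nd1, a mitochondrial transcript, was -1.03 there and -0.33 in all 12 libraries. That of the non-coding RNA Meg3 was -2.9 there and -1.1 in all 12. The median over all genes was 0.02 in both fits. Mitochondrial transcripts took 1.77%, 2.84% and 3.26% of the counts in GW3965+CT99021 replicates 1, 2 and 3, 4.05%, 2.57% and 4% with CT99021, 3.51%, 2.9% and 3.26% with GW3965, and 3.11%, 2.71% and 3.97% in Control. The nuclear non-coding RNA Meg3 had 129, 958 and 725 CPM with both compounds, 650, 816 and 740 CPM with CT99021, 929, 889 and 1210 CPM with GW3965, and 539, 752 and 735 CPM in Control. On both measures GW3965+CT99021 replicate 1 was the lowest of the 12. The part of these levels in the calls of the 7-library fit was not tested.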

How the data were processed

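The deposited table holds the authors' raw read counts per feature, as whole numbers with no normalization, for 12 libraries. Bowtie and mm9 are named per the submitters' processing notes. Their versions and roles, the counting program, the annotation and the use of strand are not stated in the labels used here, so values of overlapping genes, antisense pairs and near-identical copies are uncertain (1047 rows carry a locus suffix). The 1217 repeat rows were not used.

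From the 23965 gene rows, edgeR 4.0.16 in R 4.3.3 kept 15608 (filterByExpr) and fitted a mean per group plus the replicate number, with TMM factors, quasi-likelihood tests and Benjamini-Hochberg adjustment over all genes (threshold 0.05). The SE and 95% interval of a log2 value come from the same fit. The biological coefficient of variation was 12.7%. CPM values were computed from the counts, are not per length and do not compare genes. DESeq2 1.42.0 and limma-voom (limma 3.58.1) were alternatives, and the fit was tested on simulated data.

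The replicate numbers pair the libraries by the data, not by the labels: deviations from group means correlated at 0.496 to 0.828 across genes for 18 same-number pairs, against -0.677 to 0.241 for others, and 12 of 12 libraries were closest to one of their own number. These ranges are not independent, because the deviations of a group sum to 0. Chi-square per gene between libraries of 1 group was 28.2 to 136, above sampling noise.

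The contrast, members and lists were chosen with earlier results of these data known. Named genes were list members (with 2 to 4 per list beside 10 set genes) and the 10 positive and 10 negative interactions of lowest p. The latter were taken among genes with a mean of 1 CPM or more and 1 sign in 3 numbers. Further list members, Col2a1, Acan, Sox9, Meg3, mt-Nd1, Scd3 and the direct repeat were picked with their values in view. Some named genes are not reported here.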

Additional observations from a re-analysis of the deposited data

Results flagged for a closer look

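For 17 of the 200 genes named by the lists and ranks (8.5%), the effect of GW3965 had one sign with CT99021 in all 3 replicate numbers and the opposite sign without it, as it did in 469 of all 15608 genes (3%). Of the 17, 14 were ranked for their interaction. Ranked genes were picked for a low p and for 1 sign of the interaction in the 3 numbers. The share of 8.5% is raised by that choice and cannot be weighed against 3%. The difference itself was tested as the interaction, and none passed edgeR's test (adjusted p of 0.999 for each).

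The log2 interaction was positive for Tmem26 (1.9), Stard8 (1.89), Mme (1.43), Twist1 (0.88), Sema5a (0.76), Arhgap31 (0.48), Tcf7 (0.43) and Slc12a2 (0.41). It was negative for Gm4951 (-1.44), 5830416P10Rik (-1.38), Tmem88b (-1.33), Tns4 (-1.2), Car5a (-1.13), Slc11a1 (-1.02), 1110021J02Rik (-0.54), Ttc5 (-0.43) and Abcg4 (-0.39). In Stard8, Tmem26 and Mme, GW3965 replicate 3 was far below the other libraries numbered 3.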

How the results depend on the processing

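The count of genes past the interaction test was 0 with median-ratio factors, with no filter on low counts, with limma-voom, without Lars2, without the libraries numbered 3 and with a term for the set of 5, and 0 to 0 without each library in turn. Without the replicate block that pairs libraries it was 0 too, and 74 genes had an unadjusted p under 0.05, where the block gave 522. It was 2 with DESeq2, on genes of 4 counts in all, and 57 when the libraries numbered 3 and GW3965+CT99021 replicate 2 were left out, which keeps 1 library with both compounds. List and ranked genes past the test were 0 under these settings except Lss, at -0.7 in the 7 libraries kept there. Meg3 and mt-Nd1, picked with their values in view, were also called in those 7, at -2.9 and -1.03. Up to 47 of 200 named genes changed sign, most without GW3965 replicate 3. Intervals that reach past 2-fold (23.6% of genes) do not exclude larger interactions, and low counts limit Nr1h3, Th and Dkk4.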
